A study of Homo sapiens with 2 samples.

Results

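The TSC22D genes (TSC22D1, TSC22D2, TSC22D3 and TSC22D4) were examined in HGC-27 cells together with 3 genes of the glucocorticoid response (FKBP5, SGK1 and NR3C1) and 3 FOXO transcription factor genes (FOXO1, FOXO3 and FOXO4). The question was whether TSC22D3, a gene with a large difference between the libraries, moved with other glucocorticoid-responsive or FOXO-responsive genes. The 10 genes were picked by Entrez number, and 9 of them were measured among the 16021 genes and gene models of the table. NR3C1, which encodes the glucocorticoid receptor, was not analysed here. Because the ratio of TSC22D3 in these same libraries prompted the choice, that ratio is a description.

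HGC-27 is an established human gastric adenocarcinoma line. It was grown in RPMI-1640 with fetal bovine serum and transduced with lentiviral particles for one of 2 hairpins. One culture received the non-targeting shRNA (the control library), and the other received the DDX5 shRNA, directed at an RNA helicase gene (the knockdown library). Both cultures received puromycin from 48 h after transduction and were collected 1 week later. The labels name no added glucocorticoid or kinase inhibitor in either culture. RNA sequencing of 1 library per condition gave FPKM, fragment numbers normalised for transcript length and sequencing depth. With 1 library on each side, no p-value or standard error could be had, the spread between cultures was not measured, and an effect of DDX5 cannot be told apart from an effect of this hairpin or from variation between cultures.

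TSC22 domain proteins carry a conserved leucine zipper and form dimers with one another. TSC22D3 encodes GILZ, the glucocorticoid-induced leucine zipper protein, which binds NF-κB and AP-1 subunits and is a classical target of the glucocorticoid receptor in lymphoid and epithelial cells. The receptor is held by HSP90 and co-chaperones until it binds hormone, then enters the nucleus and activates genes such as FKBP5, PER1 and TSC22D3. FOXO factors are kept in the cytoplasm when AKT or SGK kinases phosphorylate them. When that signal falls they activate genes of cell cycle arrest, autophagy and stress resistance, and TSC22D3 has been described as a FOXO3 target in T cells.

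The sequence before annotated gene starts was searched for the letters that these factors recognise. The FOXO core GTAAACA, on either strand, lay in 1 of the 4 TSC22D3 windows that RefSeq gives (build GRCh38.p14, each from 250 bases before to 50 bases after a start). It was 147 bases before the start at chrX position 107717062. The stretch from that window is shown with those from TXNIP and MXI1, the FOXO-activated genes that were at least 2-fold higher in the knockdown library and held the same letters. Each is written 5′ to 3′ on its gene's strand, with the FOXO core or its reverse complement in capitals.
TSC22D3, chrX:107717173-107717239, minus strand: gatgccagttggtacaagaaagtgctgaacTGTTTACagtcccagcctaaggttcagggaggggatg
TXNIP, chr1:145996667-145996733, minus strand: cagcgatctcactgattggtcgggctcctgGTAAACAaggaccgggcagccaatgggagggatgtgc
MXI1, chr10:110210050-110210116, plus strand: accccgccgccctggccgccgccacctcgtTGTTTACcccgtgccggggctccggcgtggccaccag

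None of these 3 stretches overlapped an exon in GENCODE v29. Those of TSC22D3 and MXI1 lay inside their own genes, in introns of longer transcripts, and that of TXNIP lay outside any gene. Of all 35116 windows, 3.42% held the FOXO core, and 4.19% of 27305 genes had it in at least 1 window. Among genes expressed here (mean of both libraries at least 1 FPKM), the share was 3.56% of 9279. Windows were found for 8 of the 9 measured genes, all but TSC22D2, and 2 of these 8 held the FOXO core, TSC22D3 and FOXO4. In FOXO4 the letters lay after the start. Of the expressed FOXO-activated genes described below, 4 of 26 with a window held it (15.4%), namely TXNIP, MXI1, BCL2L11 and PIK3CA. Of the expressed glucocorticoid-induced genes, 0 of 14 did. DEPP1 of the first list and EDN1 of the second also held it but were below 1 FPKM. The full glucocorticoid response element, AGAACA followed after any 3 bases by TGTTCT, was in 1 of the 35116 windows and in none of the windows of these genes. An exact match is so rare that its absence from a few genes was nearly certain beforehand and says nothing about them. Looser or more distant elements were not searched for. A single arm, AGAACA on either strand, which the full element contains, was in 14.8% of all windows and in 1 window each of FKBP5, SGK1 and TSC22D1. A composite C/EBP-ATF element, TGATG directly followed by CAA on either strand, was in 0.866% of all windows and in none of those of the 8 genes. A match is a description of these letters and not evidence of binding, and the FPKM values do not say which start of TSC22D3 was in use.

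Library depth was similar. Low FPKM values of short genes with 1 transcript fell on steps that correspond to an estimated 1.54e+07 counted fragments in the control library and 1.53e+07 in the knockdown library. DDX5 itself was at 170.5 FPKM in the first and at 50.78 FPKM in the second, 3.36-fold lower. Genes are called well expressed where the mean of both libraries was at least 5 FPKM. Of 11413 expressed genes, 4.19% were at least 2-fold higher in the knockdown library and 2.26% at least 2-fold lower. These counts, and every log2 ratio given here, are on FPKM + 1, DDX5 shRNA over non-targeting shRNA. With both libraries brought to the same total FPKM, the median of all genes shifted by -0.10 on the log2 scale, and the 478 higher and 258 lower genes became 379 and 379. Markers of gastric differentiation were represented by MUC6 alone, at 0.07 and 0.02 FPKM, and 7 of the 8 markers were not analysed here. Epithelial markers summed to 8.75 and 12.05 FPKM over 7 genes, with EPCAM at 0.04 and 0.39 FPKM and CDH1 at 0.36 and 0.07 FPKM. Its 2 expressed genes differed in opposite directions, CLDN7 at 2.36 and 9.84 FPKM and KRT8 at 5.24 and 1.31 FPKM. Mesenchymal markers summed to 2045.33 and 1814.22 FPKM over 8 genes, most of it VIM, while the median log2 ratio of the 7 expressed ones was 0.27 and TWIST1 was at 98.96 and 199 FPKM. Blood cell markers, of interest because TSC22D3 is abundant in lymphocytes, summed to 2.77 and 2.62 FPKM over 5 genes, and 5 others were not analysed here. CD79A was listed at 0 in the control library.

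TSC22D3 (Entrez gene 1831) was at 6.86 FPKM in the control library and at 109.35 FPKM in the knockdown library. That is 15.9-fold higher, a log2 ratio of 3.81, which stood at rank 5 from the highest among 8545 well expressed genes. Only 0.0468% of those genes had a higher ratio. About 239 and 3797 fragments lay behind the values, and counting error alone gives a 95% interval of the fold from 14 to 18.2 (exact, conditional on the sum). Fragment numbers use the longest protein-coding transcript and can be too high, and the interval holds no variation between cultures. A higher level in every cell and a larger share of cells with a high level cannot be told apart in bulk RNA.

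TSC22D1 (Entrez gene 8848), the founding member of the family, first found as a gene stimulated by TGF-β, was at 19.5 FPKM and 39.56 FPKM. Its level was 2.03-fold higher in the knockdown library, and its log2 ratio of 0.98 fell just short of the 2-fold line on FPKM + 1. Among well expressed genes, 4% had a higher ratio. TSC22D4 (Entrez gene 81628), whose protein pairs with TSC22D1, was at 14.77 and 17.83 FPKM, a log2 ratio of 0.26. TSC22D2 (Entrez gene 9819) was at 2.47 and 3.01 FPKM, a log2 ratio of 0.21. These 3 relatives of TSC22D3 had a median log2 ratio of 0.26, and each stayed above 0 under every scaling and pseudocount tried. The median of all genes was 0.024, and 52% of them were above 0.

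The 4 TSC22D genes together came to 43.6 FPKM in the control library and 169.75 FPKM in the knockdown library. TSC22D3 made up 15.7% of that sum in the first library and 64.4% in the second. TSC22D1 went from 44.7% to 23.3% of the sum although its own FPKM was higher, and TSC22D4 went from 33.9% to 10.5%. In the control library TSC22D1 had the highest level in the family and TSC22D2 the lowest. In the knockdown library TSC22D3 was highest, ahead of TSC22D1, TSC22D4 and TSC22D2 in that order. FPKM is scaled to transcript length, so these levels can be set beside each other, but without replicates no neighbouring pair in either order can be called different. No 50-base window of the longest TSC22D1, TSC22D3 or TSC22D4 transcript occurred in a transcript of another gene. For TSC22D2 0.5% of windows did.

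**Figure D1:**
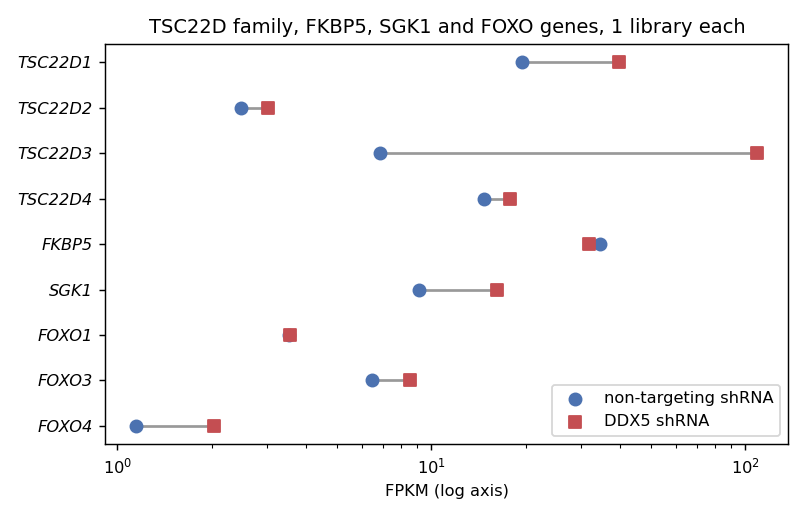
FPKM of the 9 measured genes in the control library (circles) and the knockdown library (squares), 1 library each, on a log axis; grey lines join both values of a gene. TSC22D3 spans 6.86 to 109.35 FPKM, whereas FKBP5 (34.43 and 31.81 FPKM) and FOXO1 (3.51 and 3.54 FPKM) have nearly the same value in both.

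FKBP5 (Entrez gene 2289), the HSP90 co-chaperone FKBP51 that lowers the hormone affinity of the receptor and is itself among the most dependable glucocorticoid-induced genes, was at 34.43 FPKM in the control library and at 31.81 FPKM in the other. Its log2 ratio was -0.11, with -0.22 at the same total. Counting error alone gives an interval of the ratio from 0.883 to 0.967. FKBP5 thus had nearly the same value in both libraries, whereas TSC22D3 was 15.9-fold higher. The interval holds no variation between cultures, so no direction can be given for FKBP5. It had the highest level of the 9 genes in the control library and the third highest in the knockdown library.

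SGK1 (Entrez gene 6446), a serum- and glucocorticoid-induced kinase that regulates ion channels and phosphorylates FOXO3, was at 9.12 and 16.14 FPKM. That is 1.77-fold higher in the knockdown library, a log2 ratio of 0.76, and 7.6% of well expressed genes had a higher ratio. SGK1 lay above 0 under every scaling and pseudocount tried, from 0.58 to 0.82. NR3C2, the mineralocorticoid receptor gene, whose product also binds glucocorticoids, was listed at 0.07 and 0.03 FPKM, worth about 6 and 3 fragments. HSD11B2, which encodes the enzyme that inactivates cortisol, was at 0.64 and 0.23 FPKM (chosen after its values were seen).

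The FOXO genes were not 2-fold apart. FOXO1 (Entrez gene 2308) was at 3.51 and 3.54 FPKM, a log2 ratio of 0.01 that was -0.08 at the same total. FOXO3 (Entrez gene 2309) was at 6.49 and 8.54 FPKM, a log2 ratio of 0.35. FOXO4 (Entrez gene 4303) had the lowest level of the 9 genes, at 1.15 and 2.03 FPKM, 1.77-fold higher in the knockdown library and a log2 ratio of 0.49. Behind FOXO4 lay about 58 and 103 fragments, which gives a counting interval of the fold from 1.28 to 2.5. Of the FOXO3 windows, 29.2% also occur in other genes, most often in its copy FOXO3B, so the FOXO3 value depends in part on how reads were divided. FOXO6, a FOXO factor found mainly in brain, was at 17.09 and 17.75 FPKM (chosen after its values were seen). FOXO activity is set mostly by phosphorylation and location, which mRNA levels do not measure.

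Of the 8 measured genes other than TSC22D3, none was 2-fold apart on FPKM + 1, beside 6.45% of all expressed genes. Their median log2 ratio was 0.30, and 7 were above 0 (87.5%, beside 52% of all genes). At the same total and with both centred scalings, FOXO1 joined FKBP5 below 0.

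**Figure D2:**
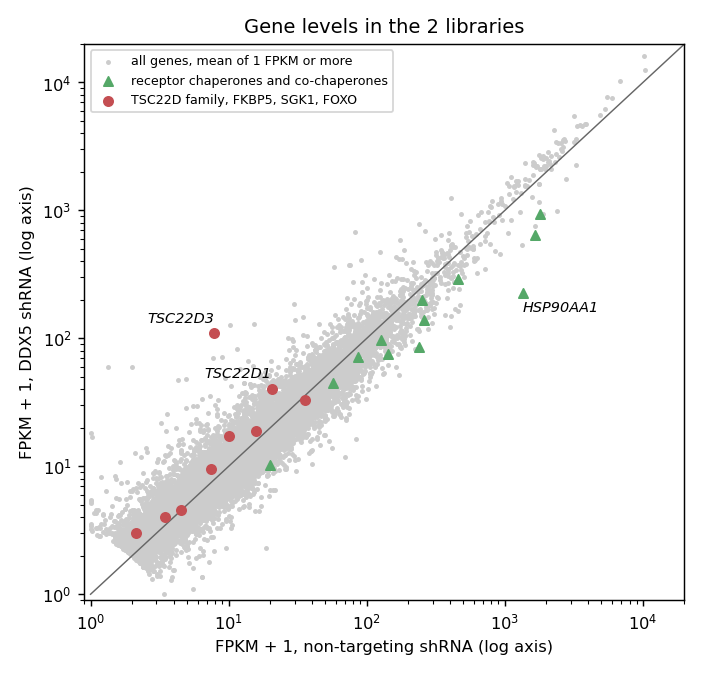
FPKM + 1 of expressed genes in the control library (horizontal, log axis) and the knockdown library (vertical, log axis); the line marks equal values, circles are the 9 measured genes and triangles 12 chaperones and co-chaperones of the glucocorticoid receptor. TSC22D3 stands far above the line, TSC22D1 less so, and all 12 triangles lie below it.

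Other glucocorticoid-induced genes were then examined as a list of 34 genes. Of these, 28 were measured and 18 were expressed. Their median log2 ratio was -0.085 beside 0.024 for all genes. Of the 18, 8 were above 0 (44.4%, beside 52% of all genes) and 10 below. RHOB and CDKN1C were at least 2-fold higher, 2 of 18 (11.1%) beside 4.19% of all genes, and none was at least 2-fold lower. With a pseudocount of 0.1 the count was 4, and with a pseudocount of 5 or a minimum mean of 5 FPKM it was 1. RHOB, a small GTPase of the actin cytoskeleton and of endosomes, was at 25.13 and 68.44 FPKM, a log2 ratio of 1.41. CDKN1C, the p57 cell cycle inhibitor (chosen after its values were seen), was at 0.3 and 1.96 FPKM and entered the count only through its level in the knockdown library.

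Among 5 measured targets of a fixed well-known set on this list (PER1, DUSP1, CEBPD, KLF9 and ANGPTL4), log2 ratios lay between -0.33 and 0.92. PER1, a circadian repressor with a well-known glucocorticoid response element, was at 5.72 and 4.33 FPKM, a log2 ratio of -0.33. DUSP1, a phosphatase that switches off MAP kinases, was at 4.51 and 5.67 FPKM. CEBPD, a C/EBP transcription factor gene, was at 4.84 and 4.53 FPKM. ERRFI1, a feedback inhibitor of the EGF receptor outside that set, was at 6.39 and 5.79 FPKM and was named because it lay near the list median. KLF9, a zinc finger repressor induced by glucocorticoids in many tissues, was at 5.37 and 11.08 FPKM, a log2 ratio of 0.92. ZBTB16 and PDK4 were not analysed here.

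ANGPTL4, a secreted lipase inhibitor that hypoxia and PPAR factors induce too, was at 5.39 and 9.5 FPKM, a log2 ratio of 0.72. Other members of the list lay on either side of 0. The metal-binding protein gene MT2A was at 344.73 and 641.75 FPKM, a log2 ratio of 0.89. Its relative MT1X was at 86.94 and 81.53 FPKM, and because metallothionein genes are similar in sequence the division between them is uncertain. RGS2, a brake on G protein signalling, was at 2.51 and 5.8 FPKM, and GADD45B, a stress sensor, lay at the low end with 6.63 and 2.83 FPKM (both chosen after their values were seen).

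The opposite arm, inflammatory genes that glucocorticoids repress, was thinly represented. Of 20 genes, 9 were measured and 4 were expressed. CCL2, a monocyte chemokine, was at 19.25 and 11.14 FPKM, a log2 ratio of -0.74. VCAM1, an adhesion molecule for leukocytes, was at 10.66 and 25.13 FPKM, a log2 ratio of 1.16. The other 2, CCL5 and PLAU (chosen after their values were seen), were at 4.1 and 4.77 FPKM and at 1.82 and 1.54 FPKM. These 4 genes showed no common direction, with 2 above 0 and 2 below.

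FOXO-activated genes stood higher as a list. Of 42 genes, 35 were measured and 31 were expressed. Their median log2 ratio was 0.65 beside 0.024 for all genes, and 23 of 31 were above 0 (74.2%, beside 52% of all genes). At least 2-fold higher were 9 of 31 (29%, beside 4.19% of all genes), and none was at least 2-fold lower. With a pseudocount of 5 the count was 5 and the median 0.39. TNFSF10, at 1.34 and 0.25 FPKM and a log2 ratio of -0.90, was left out because its mean was below 1 FPKM. BBC3, at 0.77 and 1.73 FPKM, was among the 31 only through its level in the knockdown library (both chosen after their values were seen). TXNIP, which restrains glucose uptake, had the largest ratio at 14.33 and 127.83 FPKM, a log2 ratio of 3.07, the nearest of the list to TSC22D3. It was placed on this list and the ATF4 list, and not on the glucocorticoid-induced list. The medians and counts of the lists depend on such placements, so their contrast does not tell FOXO from glucocorticoid responses. KLF2, a quiescence factor of lymphocytes and endothelium, was at 3.39 and 13.82 FPKM, a log2 ratio of 1.76.

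Cell cycle brakes were among the higher FOXO-activated genes. CDKN1B, the p27 inhibitor and a model FOXO target, was at 30.46 and 55.56 FPKM, a log2 ratio of 0.85. CCNG2, a cyclin that accompanies arrest, was at 1.69 and 3.21 FPKM, a log2 ratio of 0.65. MXI1, an antagonist of MYC, was at 7.19 and 18.04 FPKM, GADD45A at 19.16 and 44.72 FPKM, and CDKN1A, the p21 inhibitor, at 3.72 and 11.26 FPKM (all 3 chosen after their values were seen). RBL2, a retinoblastoma relative, went the other way at 14.37 and 11.79 FPKM (chosen after its values were seen). Of these 6 cell cycle genes, a grouping made after the values were seen, 5 were above 0, beside 52% of all genes.

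Autophagy genes of the list, also grouped after the values were seen, had a median log2 ratio of 0.82. GABARAPL1, which coats the forming autophagosome, was at 10.45 and 18.02 FPKM, a log2 ratio of 0.73. PINK1, the kinase that marks damaged mitochondria, was at 4.36 and 9.6 FPKM, and ULK1, the kinase that starts autophagy, at 1.75 and 3.87 FPKM (both chosen after their values were seen). All 5 expressed autophagy genes were above 0, beside 52% of all genes, and none reached 2-fold on FPKM + 1. The atrophy ubiquitin ligase gene FBXO32, a FOXO3 target in muscle, was at 2.19 and 6.36 FPKM (chosen after its values were seen). BCL6, a transcriptional repressor, was at 6 and 10.07 FPKM and lay near the list median.

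Of the 31 FOXO-activated genes, 8 were below 0. Antioxidant genes of the list had a median log2 ratio of -0.29, with 2 of 5 above 0. For cell death genes the median was 0.30, with 1 of 2 expressed genes above 0. For insulin signalling genes it was 0.16, with 3 of 4 above 0. These groupings too were made after the values were seen, and 52% of all genes were above 0. BCL2L11, the pro-apoptotic BIM gene and one of the most studied FOXO3 targets, was at 4.18 and 4.06 FPKM, a log2 ratio of -0.03. SESN1, a stress-induced inhibitor of mTORC1, was at 1.99 and 1.44 FPKM, whereas its paralog SESN3 was at 4.31 and 11.15 FPKM. The mitochondrial antioxidant genes SOD2 and PRDX3 were at 17.25 and 10.58 FPKM and at 114.39 and 58.58 FPKM (both chosen after their values were seen). IRS2, an insulin receptor substrate, was not analysed here. INSR, the insulin receptor gene that FOXO factors raise under low insulin, was on the higher side at 1.74 and 2.34 FPKM (chosen after its values were seen).

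Part of the FOXO-activated list was also on a list of targets of ATF4, the transcription factor of amino acid stress. Of 39 ATF4 targets, 32 were at least 2-fold higher (82.1%, beside 4.19% of all genes), with a median log2 ratio of 1.64. SLC7A11 at 7.3 and 24.84 FPKM and PSAT1 at 236.58 and 776.49 FPKM were typical of them. On both lists stood TXNIP, SESN3 and EIF4EBP1, an inhibitor of translation initiation at 161.38 and 428.64 FPKM. Without these 3 genes, 6 of 28 FOXO-activated genes (21.4%, against the same 4.19%) were at least 2-fold higher and the median was 0.59. Both lists were chosen with earlier results of these data known, so leaving these genes out does not separate FOXO factors from ATF4. TRIB1, a pseudokinase gene related to the ATF4 target TRIB3, remained among the 6 at 35.89 and 103.89 FPKM. The part of ATF4 in the levels of TSC22D3 and of the FOXO-activated genes was not tested.

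The 5 well expressed genes whose log2 ratio lay nearest to that of TSC22D3 were TRIB3, ESRP1, INHBE, SERF1A and AKNA. With 2 libraries the ratio is the only measure of likeness. TRIB3, at 9.18 and 126.35 FPKM, and INHBE, at 3.3 and 45.89 FPKM, are on the ATF4 list. AKNA, an AT-hook protein gene, was at 3.89 and 47.35 FPKM. ESRP1 was listed at 0.02 and SERF1A at 0 FPKM in the control library, beside 15.92 and 17.32 FPKM in the other, so their ratios depend on the added 1 FPKM. No gene of the glucocorticoid-induced or FOXO-activated list was among these 5. The lists held only 13 and 23 of the 8545 well expressed genes, so this absence was likely beforehand and says nothing about either list.

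**Figure D3:**
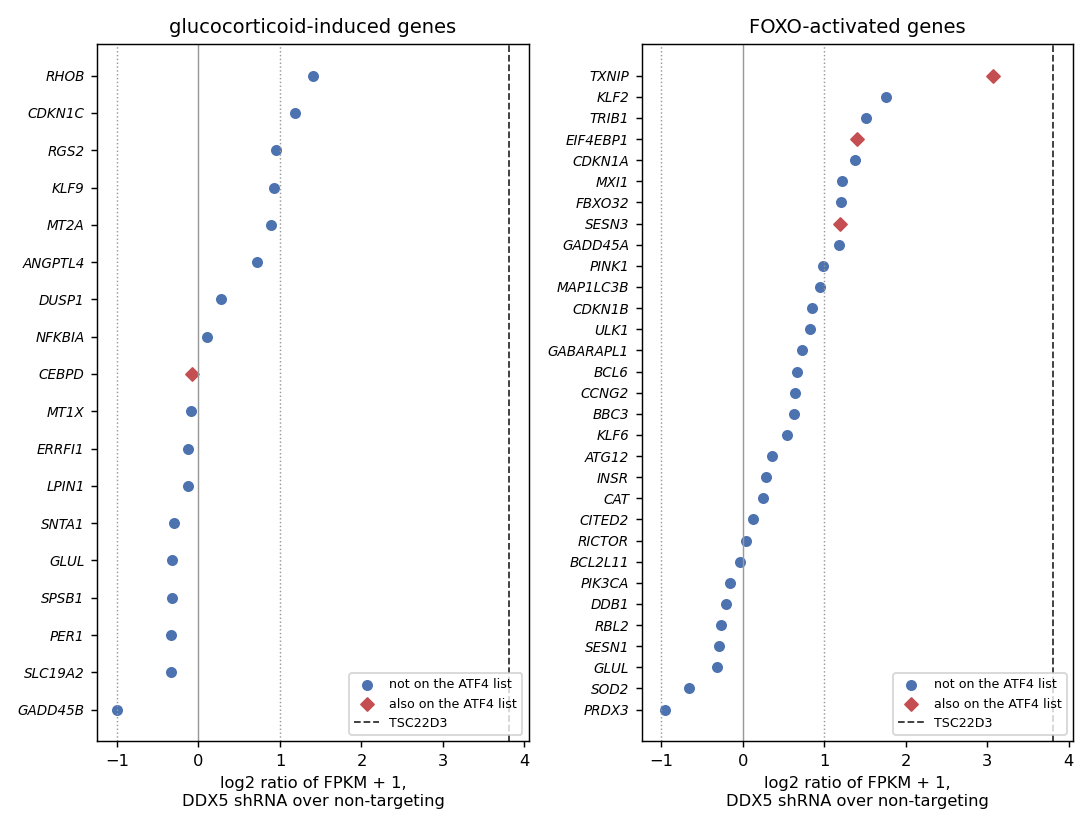
Log2 ratio of FPKM + 1 (horizontal axis, DDX5 shRNA over non-targeting shRNA) for each expressed gene on the glucocorticoid-induced list (left, 18 genes) and the FOXO-activated list (right, 31 genes); diamonds are also ATF4 targets, dotted lines mark 2-fold and the dashed line marks TSC22D3. On the left 2 genes lie beyond 2-fold higher and on the right 9, and TXNIP comes nearest to TSC22D3.

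The proteins that hold and fold the glucocorticoid receptor had lower mRNA levels in the knockdown library. Of 23 expressed receptor machinery genes, 17 were below 0 and 6 above (26.1%, beside 52% of all genes). The median log2 ratio was -0.35 and 3 were at least 2-fold lower (13%, beside 2.26% of all genes). HSP90AA1, the inducible HSP90 that keeps the receptor able to bind hormone, was at 1345 and 223.95 FPKM, a log2 ratio of -2.58. Its constitutive partner HSP90AB1 was at 1811.05 and 929.95 FPKM, a log2 ratio of -0.96. HSPA8 and DNAJA1, an HSP70 and an HSP40 that help load client proteins onto HSP90, were at 1652.26 and 643.49 FPKM and at 238.47 and 84.11 FPKM. FKBP4, the FKBP52 co-chaperone that favours hormone binding and nuclear transport, was at 140.77 and 73.91 FPKM, a log2 ratio of -0.92 where its opponent FKBP5 was at -0.11.

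CDC37, an HSP90 co-chaperone for kinases, and PPID, the cyclophilin 40 co-chaperone, were near the median of that list at 251 and 196.8 FPKM and at 56.12 and 43.76 FPKM. All 12 chaperones and co-chaperones, a grouping made after the values were seen, were below 0, beside 5455 of all 11413 expressed genes. Their median was -0.90 and their summed level 6440.58 and 2801.25 FPKM. The 9 coregulators that the receptor recruits at its target genes did not follow them. Their median was 0.15 and 6 were above 0 (66.7%, beside 52% of all genes). NCOA3, a coactivator, had the largest log2 ratio of these, 0.67, at 5.27 and 8.98 FPKM (chosen after its values were seen).

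Genes that control FOXO factors lay near the median of all genes. Of 34 expressed ones, 13 were above 0 (38.2%, beside 52% of all genes), and the median log2 ratio was -0.065. None was at least 2-fold higher (4.19% of all genes) and 2 were at least 2-fold lower (5.88%, beside 2.26% of all genes). Those 2 were SKP2, a ubiquitin ligase subunit that marks FOXO1 and p27 for degradation, at 58.31 and 24.77 FPKM, and SFN, the 14-3-3 sigma gene, at 2.03 and 0.4 FPKM (chosen after its values were seen). SFN entered the count only through its level in the control library. AKT1, the kinase that sends FOXO factors out of the nucleus, was at 96.82 and 59.16 FPKM, a log2 ratio of -0.70. XPO1, the exportin that carries them, was at 154.35 and 100.86 FPKM, a log2 ratio of -0.61. SIRT2, a deacetylase of FOXO proteins, was at 11.63 and 16.95 FPKM, a log2 ratio of 0.51. YWHAG, a 14-3-3 protein that retains FOXO in the cytoplasm, and MAPKAP1, a subunit of the AKT-activating complex mTORC2, had log2 ratios of -0.076 and -0.055.

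The partners of TSC22D proteins had log2 ratios on both sides of 0. NRBP1, a pseudokinase that binds TSC22D proteins, was at 74.81 and 78.07 FPKM, and its relative NRBP2 at 3.9 and 5.53 FPKM. WNK1, the kinase that senses cell volume and chloride, was at 26.21 and 33.81 FPKM, and its relative WNK2 at 6.82 and 2.93 FPKM, a log2 ratio of -0.99 (WNK2 chosen after its values were seen). Over 22 genes of the partner and cell volume list the median log2 ratio was 0.019, with 11 above 0 (50%, beside 52% of all genes). None was at least 2-fold higher (4.19% of all genes) and 1 was at least 2-fold lower (4.55%, beside 2.26% of all genes). That gene was SLC6A6, a taurine transporter gene, at 9.69 and 4.24 FPKM. SLC5A3 and SLC12A2, transporters of inositol and chloride, were at 3.86 and 2.36 FPKM and at 5.92 and 3.79 FPKM (both chosen after their values were seen). NFAT5, the osmotic stress factor, was at 5.58 and 7.9 FPKM, and AKR1B1, an aldose reductase that it induces, at 12.22 and 18.77 FPKM. The volume-regulated channel subunit LRRC8A was at 9.33 and 9.17 FPKM. TCEAL9, a member with a looser link to the list, was at 40.84 and 24.4 FPKM.

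**Figure D4:**
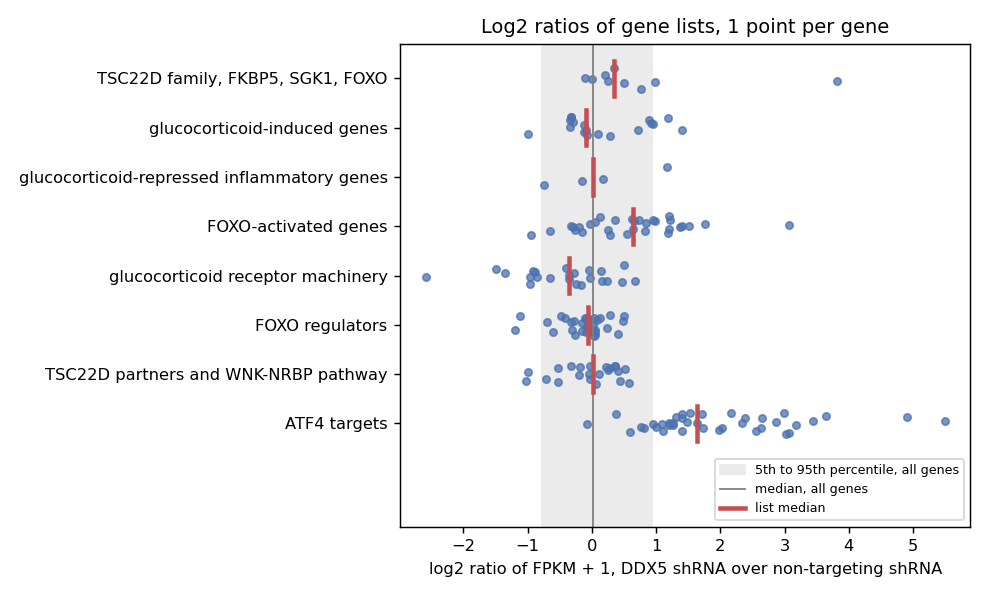
Log2 ratio of FPKM + 1 (horizontal axis, DDX5 shRNA over non-targeting shRNA) of each expressed gene in 8 lists; red bars are list medians, and the grey band and line are the range from the 5th to the 95th percentile and the median of all genes. FOXO-activated genes have a median of 0.65, glucocorticoid-induced genes -0.085 and receptor machinery genes -0.35, and TSC22D3 is the point at 3.81 in the top row.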

How the data were processed

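RNA from 1 non-targeting shRNA and 1 DDX5 shRNA culture was sequenced. The authors deposited FPKM values with 2 decimals for 16021 genes, per the file headers. Build hg19 and the tools RSEM 1.2.8, Bowtie2 and HISAT come from the submitters' processing notes, which give no roles. For annotation and strand setting nothing is given in the sources used here. Reads shared by gene copies are apportioned by RSEM, so such values are uncertain. Columns were matched to samples by title, and Entrez numbers to RefSeq symbols (GRCh38.p14) for 15289 rows.

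Values were computed with pandas 2.3.3 and numpy 2.4.6 in Python 3.11.15, intervals with scipy 1.17.1 and plots with matplotlib 3.10.9. The log2 ratio is of FPKM + 1, and it understates differences of low genes. Counts and medians are over expressed genes (mean of at least 1 FPKM). No test was run. Depth was estimated from steps in FPKM times length (shortened by 150 bases): 71.4% of 105 and 71% of 100 low values fell within 0.15 of a whole number, at a step chosen for the best match. Only the log2 ratios, medians and counts were tested on simulated data. The simulated differences were larger than 2-fold, in genes of at least 5 FPKM, and with less spread than seen here.

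The genes and lists were chosen with earlier results of these data known. The text names the 10 genes, DDX5, a fixed set of well-known targets, up to 4 genes per list with the largest absolute ratio and 2 nearest its median (mean of at least 5 FPKM), and the 5 genes most like TSC22D3; of the ATF4 list, FGF21 and GDF15 are not described.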

Additional observations from a re-analysis of the deposited data

How the results depend on the processing

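Alternatives were pseudocounts of 0.1 and 5, the same total FPKM, centring on the overall median or trimmed mean (30% off each end), and, for the 2 target lists, no filter, a minimum mean of 5 FPKM, and leaving out ATF4 targets or genes on both lists. Movement was judged against the robust SD of genes in the same of 20 expression bins, and for the 2 target lists against the error of the median. With a pseudocount of 5 the TSC22D3 log2 ratio was 3.27, the FOXO-activated median 0.39 and the FOXO-activated count of 2-fold higher genes 5, as a larger pseudocount shrinks the ratios of low genes by construction. The glucocorticoid-induced count was 4 with a pseudocount of 0.1, 1 with a pseudocount of 5 and 1 with a minimum mean of 5 FPKM. The median of the glucocorticoid-induced list moved by less than its error of 0.11 under each of these. That of TSC22D1, TSC22D2 and TSC22D4 was 0.26 and lay between 0.15 and 0.28 under the other scalings and pseudocounts. It was set against the largest single-gene spread of the 3, 0.50, which exceeds the median itself. Even a fall to 0 would not have counted as movement, so that comparison says nothing about stability. Of 310 values for 62 named genes, 299 moved by less than the spread and 11 by more. The same total and both centrings shift all expressed genes nearly alike, their median by -0.10, -0.024 and -0.027. Such shifts are far below the spread of a gene, so all 62 values staying within it was fixed beforehand for each. Only the pseudocounts could move a gene: 58 of 62 values stayed within the spread at 0.1 and 55 of 62 at 5. None of the 2-fold ratios among them changed sign. Near 0, FOXO1 went from 0.01 to -0.08 at the same total, -0.015 centred on the median and -0.018 centred on the trimmed mean, and NRBP1 went from 0.06 to -0.05 at the same total. No paired analysis was possible because each group has 1 library. Depth limits genes near 1 FPKM, and the spread between cultures is unknown.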

Other observations

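Among the AKT kinase genes, AKT1 was at 96.82 FPKM in the control and 59.16 FPKM in the knockdown library, and AKT2 at 13.65 and 14.47 FPKM (AKT2 chosen after its values were seen). FOXO6 had a higher FPKM than FOXO1, FOXO3 or FOXO4 in both libraries. Its longest protein-coding transcript had 1476 bases, beside 5735, 7341 and 3301 for those genes. About 388 and 401 fragments lay behind FOXO6, above FOXO1 (310 and 311) and FOXO4 (58 and 103) and below FOXO3 (733 and 961). The higher FPKM thus depends on the length assigned, and FOXO6 was not checked for sequence shared with other genes.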
